A study of Mus musculus with 4 samples.

Results

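Mt1 and Mt2 encode the metallothioneins MT-1 and MT-2, and both were followed here across the liver mononuclear cells of 4 single-cell RNA-sequencing libraries. They are 2 of the 31053 genes in the count files and were taken by symbol. The pair was chosen on its measured levels in these libraries, so what follows describes the pair and supports no claim by the choice itself. The cells were freed from whole livers of C57BL/6 mice of 8 to 10 weeks by enzymes and enriched for mononuclear cells on Percoll. The Naïve library was from mice that received no concanavalin A (ConA), a plant lectin that activates T cells and is given to mice as a model of autoimmune hepatitis. The other 3 received ConA and then the corn oil vehicle (ConA+Veh) or TCDD (ConA+TCDD), both killed at 24 h, or, by its label, FICZ (ConA+FICZ). TCDD and FICZ are ligands of the aryl hydrocarbon receptor (AhR), a transcription factor that binds foreign and dietary small molecules. The dose, vehicle and hour of FICZ and the number of mice behind a library are not given in the sources used here, so the TCDD and FICZ libraries are given side by side. Each condition had 1 library, so no test between conditions was possible, and the condition cannot be told apart from the library.

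Metallothioneins are small cysteine-rich proteins that bind zinc and copper in the cytoplasm and buffer the supply of both metals. Their genes are switched on by zinc through the metal-sensing transcription factor MTF-1, which binds metal response elements in their promoters, and also by glucocorticoids, by cytokines that signal through STAT3 and by oxidative stress. In the liver, hepatocytes are the best known source, and the protein is a marker of the acute phase response. In lymphocytes, metallothioneins are known for their place in zinc balance after activation.

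Both genes lie on the plus strand of mouse chromosome 8 in build GRCm38 (GENCODE vM21). Mt2 spans chr8:94172664-94173568 and Mt1 spans chr8:94179082-94180327, with 5513 bases between them. The transcript model that covers the whole gene has 3 exons in each, of 549 bases in all for Mt1 and 511 for Mt2. The longest stretch that these 2 transcripts share is 20 bases. An antisense gene, Gm45774, covers 749 bases of Mt2 on the other strand and held 0, 2, 2 and 1 UMIs (unique molecular identifiers, each 1 counted transcript) in the 4 libraries. Values given in fours follow the order Naïve, ConA+Veh, ConA+TCDD, then ConA+FICZ. Bases before the most upstream starts are shown, as metal response elements are known to sit in the promoters. The capitals mark each match to TGCACNC or TGCGCNC, the core letters of such an element, on either strand. The sequences are RefSeq's, in build GRCm38.p6, plus strand, chr8:94178839-94179081 for Mt1 and chr8:94172368-94172617 for Mt2. The Mt1 window ends directly before the GENCODE start, and the Mt2 window, which ends before RefSeq's start, leaves 46 bases before the GENCODE start unshown.
Mt1: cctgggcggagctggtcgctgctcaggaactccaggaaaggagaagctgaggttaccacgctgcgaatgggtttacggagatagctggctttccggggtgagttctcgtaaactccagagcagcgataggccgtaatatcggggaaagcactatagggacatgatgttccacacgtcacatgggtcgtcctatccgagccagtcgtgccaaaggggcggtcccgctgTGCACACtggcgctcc
Mt2: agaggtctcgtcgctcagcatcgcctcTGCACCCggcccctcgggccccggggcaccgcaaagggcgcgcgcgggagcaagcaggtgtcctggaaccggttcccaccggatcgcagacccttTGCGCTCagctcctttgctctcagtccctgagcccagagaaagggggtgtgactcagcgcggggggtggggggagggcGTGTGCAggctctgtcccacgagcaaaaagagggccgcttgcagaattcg
The Mt1 window held 1 match, 16 to 10 bases before its end, and the Mt2 window held 3, of which the last is the reverse-strand match GTGTGCA. At least 1 such match was found in 21.4% of 32817 promoter windows of 250 bases and at least 3 in 1.26%. The core of the AhR element, GCGTG, was found once in each window, as in 28.1% of all windows, and in Mt2 it overlaps the last capital run. One match to TGANNNNGC, the core of an antioxidant response element, was in Mt2 (35.2% of all windows had 1), and CACGTG was in neither (6.02%). GENCODE lists further Mt1 models that start at 94179211 and 94179241 and an Mt2 model that starts at 94172860, whose own upstream bases are not shown in full. The counts of matches thus hold for the windows shown and not for the whole promoters, and the 2 genes are not compared by them. A match is a string of letters, and binding was not measured.

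The files held 2086 cells of Naïve, 2779 of ConA+Veh, 1880 of ConA+TCDD and 2555 of ConA+FICZ, with 5952445 to 19252211 UMIs in all and a median of 2161 to 3984 UMIs per cell. Between 4 and 15 cell barcodes were shared by each pair of libraries. Cells were placed in 1 of 14 competing classes by how many of a list of marker genes they held, with at least 2 markers and a lead of 1. Between 69 and 206 cells a library held fewer than 2 markers, and 28 to 56 were tied. T-like, B-like, natural killer (NK)-like and phagocyte-like cells carried their own markers among their leading genes. A median of 5 to 7 of the 10 T markers and a median of 1 marker of any other class was found in the T-like cells, of which 40 to 60 a library sat 1 marker from the edge of the gate. Droplets gated on hepatocyte enzyme genes had none of those markers among their 10 leading genes, which were plasma protein genes such as Saa2, Saa1, Fga and Alb, and in ConA+FICZ a median of 970.5 UMIs against 3147 in the whole library. They are called hepatocyte-gene droplets here and are not named as a cell type.

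Levels are given as UMIs per 1000000 UMIs of the cells concerned (CPM). Over all cells, Mt1 stood at 188 CPM in Naïve, 238 in ConA+Veh, 588 in ConA+TCDD and 719 in ConA+FICZ. Mt2 stood at 29.7, 31.5, 120 and 97.4 CPM in the same order. Both genes were thus higher in the 2 AhR ligand libraries than in the other 2. The ConA+FICZ sum rested on few droplets. There, 196 hepatocyte-gene droplets (7.67% of the cells) held 54.1% of the Mt1 UMIs, and without them Mt1 stood at 336 CPM. In ConA+TCDD the T-like cells held 39.7% of the Mt1 UMIs and 50.5% of the Mt2 UMIs, whereas in ConA+Veh they held 16.3% and 21.4%. In a sum over cells, fewer cells of a type and less RNA per cell cannot be told apart, so each level below is taken within the class.

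In every library B-like and NK-like cells were among the lowest in Mt1 and the hepatocyte-gene droplets were the highest. In Naïve, Mt1 stood at 6312 CPM in the 28 hepatocyte-gene droplets, 1578 in endothelial-like cells, 520 in phagocyte-like cells, 261 in neutrophil-like cells and 109 in T-like cells. B-like cells (18.2 CPM) and NK-like cells (17.2) came last and overlapped in their 95% counting intervals. Bile duct-like cells (793, from 2 cells) overlapped the phagocyte-like cells. These intervals, exact Poisson for a level and exact binomial for a ratio or share, cover counting error only. In ConA+Veh the hepatocyte-gene droplets (9606) and stellate- or fibroblast-like cells (7838) overlapped at the top, followed by bile duct-like (2607), endothelial-like (1139) and phagocyte-like cells (746). Granulocyte progenitor-like cells (364) and erythroid-like cells (358) overlapped in the middle of that order. T-like cells (84.4) overlapped NK-like cells (65.5), NK-like cells overlapped neutrophil-like cells (51.4), and B-like cells (18.5) were lowest. In ConA+TCDD the order at the bottom was T-like (423), neutrophil-like (388), NK-like (72.2) and B-like (51.1), where T-like and neutrophil-like overlapped, as did NK-like and B-like. In ConA+FICZ it was neutrophil-like (545), granulocyte progenitor-like (392), T-like (213), NK-like (89.3) and B-like (83.6), and the last pair overlapped. Plasmacytoid dendritic-like cells, with 0, 5, 9 and 11 Mt1 UMIs, and mast cell- or basophil-like cells, with 0, 17, 0 and 0, had too few to be placed in these orders.

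**Figure D1:**
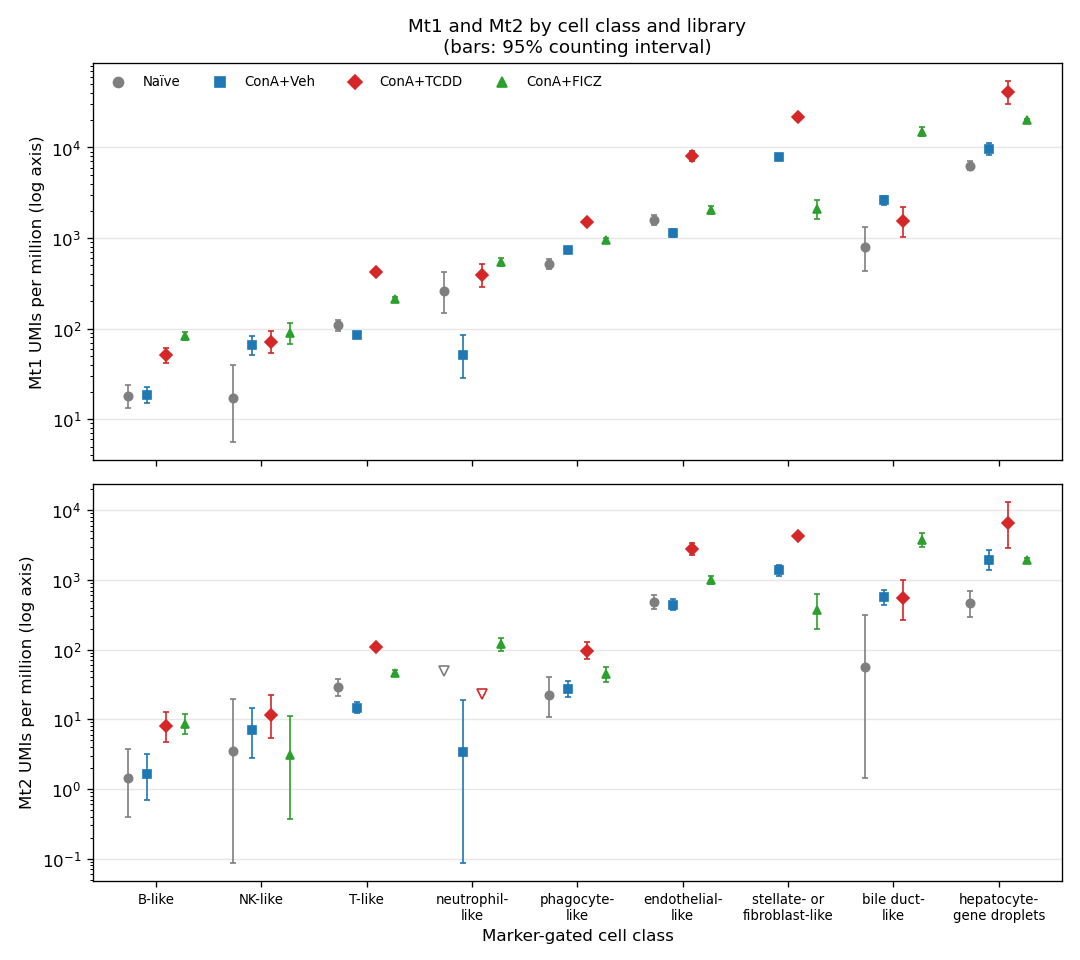
Mt1 (top) and Mt2 (bottom) in CPM within each class on a log axis, by marker-gated class and library (classes of at least 2 cells; bars are 95% Poisson intervals, open triangles stand at 3 counts where no UMI was found). Lymphocyte classes lie below 1000 CPM for Mt1 in each library, with T-like cells of ConA+TCDD at 423, and the hepatocyte-gene droplets reach 40597, from 2 droplets.

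Of the lymphocytes, T-like cells held most of the Mt1 and Mt2 UMIs in each library. Mt1 stood at 109 CPM (95% interval 95 to 125, 208 UMIs in 525 cells) in Naïve, 84.4 (78.5 to 90.7, 749 UMIs in 815 cells) in ConA+Veh, 423 (408 to 439, 2823 UMIs in 705 cells) in ConA+TCDD and 213 (202 to 224, 1470 UMIs in 567 cells) in ConA+FICZ. The ConA+TCDD library was highest, ConA+FICZ was next, and their intervals did not overlap each other or those of the other 2 libraries. Mt2 stood at 28.9 (21.8 to 37.6), 14.7 (12.2 to 17.4), 110 (102 to 118) and 46.0 (41.1 to 51.4) CPM in the same order, and ConA+TCDD was again highest. The log2 ratio of ConA+TCDD over ConA+Veh was 2.33 (2.21 to 2.44) for Mt1 and 2.90 (2.63 to 3.18) for Mt2. These were the eighth and the fourth highest of 10414 genes with at least 20 UMIs in the pair. Both members were at least 2-fold higher with an interval above 0, as were 0.97% of all genes, and since the pair was picked on such values nothing is read from this. The log2 ratio of ConA+FICZ over ConA+Veh was 1.33 (1.21 to 1.46) for Mt1 and 1.65 (1.35 to 1.96) for Mt2, ranks 86 and 61 of 10439 genes. Both members passed the same call, as did 1.1% of all genes. The 2 comparisons share the ConA+Veh library. ConA+Veh over Naïve gave -0.37 (-0.60 to -0.14) for Mt1 and -0.98 (-1.45 to -0.50) for Mt2, and neither was called higher (7.83% of all genes were). No direction is given for this last pair, because 1 Naïve T-like cell held 39.5% of the Naïve T-like Mt1 and Mt2 UMIs and without the single highest cell of each library the Mt1 ratio was 0.16.

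**Figure D2:**
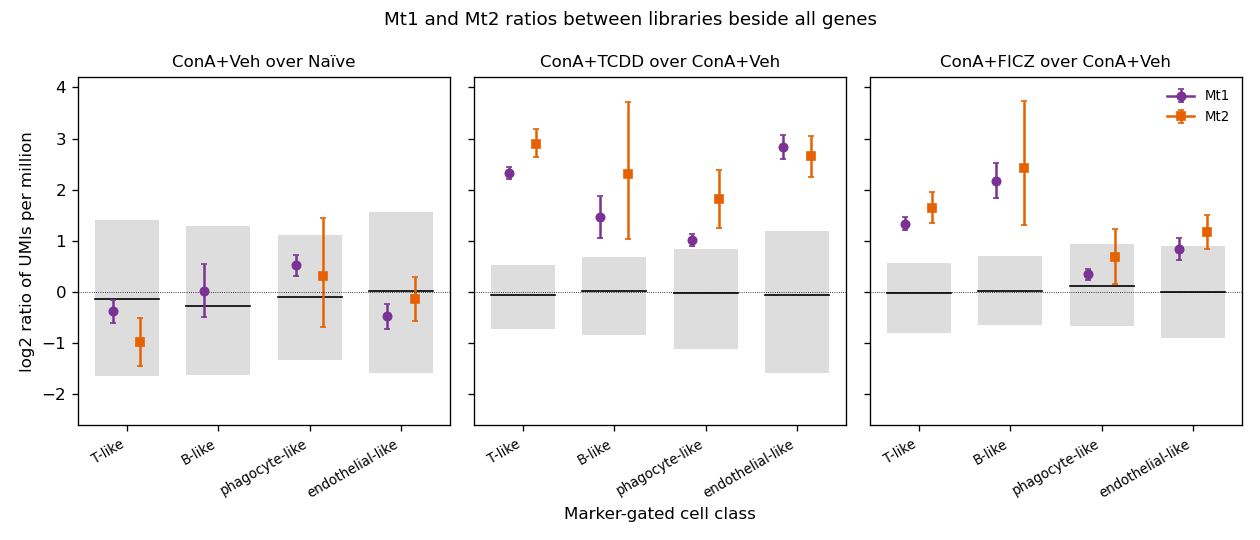
Log2 ratio of CPM between libraries for Mt1 (circles) and Mt2 (squares) in 4 classes, with 95% counting intervals (Mt2 in B-like cells of the first panel had under 20 UMIs and is left out). Grey bars span the 5th to 95th percentile of all genes and black lines their median. Mt1 and Mt2 in T-like cells lie above the grey bar for both ligand libraries, at 2.33 and 2.90 in ConA+TCDD.

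B-like cells had few metallothionein UMIs in any library. Mt1 stood at 18.2 (13.5 to 23.9), 18.5 (15 to 22.7), 51.1 (42.2 to 61.4) and 83.6 (75.3 to 92.4) CPM. Here ConA+FICZ was highest, and the first 2 libraries overlapped. Mt2 was counted 4, 8, 18 and 39 times. The log2 ratio over ConA+Veh for Mt1 was 1.46 (1.06 to 1.87) in ConA+TCDD and 2.17 (1.84 to 2.52) in ConA+FICZ, and for Mt2 it was 2.31 (1.04 to 3.72) and 2.42 (1.30 to 3.73). Both members were called higher in each, beside 1.38% of all genes for ConA+TCDD and 1.83% for ConA+FICZ. ConA+Veh over Naïve was 0.03 (-0.48 to 0.56) for Mt1, not called (7.22% of all genes were).

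RNA of hepatocyte genes was found in B-like cells as well. Albumin (Alb), a plasma protein made by hepatocytes, stood at 28.3, 23.0, 1.33 and 64.7 CPM in B-like cells. At the Mt1 to Alb ratio of each library's hepatocyte-gene droplets (0.658, 0.340, 3.27 and 0.865 Mt1 UMIs per Alb UMI), free RNA of that kind would hold 103%, 42.1%, 8.52% and 67.0% of the B-like Mt1 UMIs. In T-like cells the same shares were 10.1%, 2.09%, 6.83% and 11.1%. The ratios rested on 28, 8, 2 and 196 droplets with 456, 553, 15 and 7204 Alb UMIs. That of ConA+TCDD is the least sure, and the B-like cells of that library held 3 Alb UMIs. The shares above assume that 1 ratio holds for all free RNA, and the part of free RNA in the B-like values was not tested. With that share taken off, the B-like Mt1 ratio over ConA+Veh was 2.12 in ConA+TCDD and 1.36 in ConA+FICZ.

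NK-like cells held few metallothionein UMIs, and 1 cell decided the level in 2 libraries. Mt1 stood at 17.2 (5.60 to 40.2), 65.5 (50.6 to 83.3), 72.2 (54.5 to 93.7) and 89.3 (67.8 to 115) CPM, from 5, 66, 56 and 58 UMIs, and the 3 ConA libraries overlapped. A single cell held 41 of the 66 UMIs in ConA+Veh and another 31 of the 56 in ConA+TCDD. Without the highest cell of each library Mt1 stood at 13.8, 24.9, 32.7 and 85.0 CPM. An Mt1 UMI was found in 7.53% (4.78 to 11.2), 4.05% (1.96 to 7.32) and 17.2% (12.7 to 22.6) of the NK-like cells of the 3 ConA libraries before thinning and in 3.83% (1.85 to 6.93), 1.81% (0.50 to 4.57) and 8.95% (5.30 to 13.9) of those thinned to 1000 UMIs. Mt2 was counted 1, 7, 9 and 2 times. The free RNA share computed as above was 76.0% of the NK-like Mt1 UMIs in ConA+FICZ.

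Among the myeloid cells, phagocyte-like cells (macrophages, monocytes and dendritic cells as 1 class) held more Mt1 than lymphocytes and little Mt2 beside it. Mt1 stood at 520 (455 to 591), 746 (709 to 785), 1509 (1408 to 1615) and 948 (900 to 998) CPM, and no 2 libraries overlapped. Mt2 stood at 22.1 (10.6 to 40.7), 27.4 (20.7 to 35.6), 96.6 (72.4 to 126) and 44.3 (34.4 to 56.1), of which only ConA+TCDD stood clear of the rest. The log2 ratio of ConA+TCDD over ConA+Veh was 1.02 (0.89 to 1.14) for Mt1 and 1.82 (1.25 to 2.39) for Mt2, both called higher, beside 2.06% of all genes. The Mt1 call was lost without the single highest cell of each library (0.85), with a gate of 3 markers and a lead of 2 (0.87), and without cells that held 2 or more markers of another class (0.95). ConA+FICZ over ConA+Veh was 0.34 (0.24 to 0.45) and 0.69 (0.16 to 1.23), neither called, beside 3.23%. ConA+Veh over Naïve was 0.52 (0.32 to 0.73) and 0.31 (-0.68 to 1.44), neither called, beside 3.26%. The free RNA share was at most 2.14% of the Mt1 UMIs in these cells. The class held 83, 245, 53 and 207 cells, and its make-up of macrophages and monocytes was not held fixed between the libraries.

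Neutrophil-like cells had 16, 15, 50 and 403 Mt1 UMIs, at 261 (149 to 425), 51.4 (28.8 to 84.8), 388 (288 to 512) and 545 (494 to 601) CPM. ConA+Veh was lowest and did not overlap the others, yet single cells weighed heavily in each library. One cell held 10 of the 16 Mt1 UMIs in Naïve, which had 25 such cells. In ConA+Veh 1 cell held 6 of 15, and in ConA+TCDD 1 held 17 of 50. Without these cells Mt1 stood at 118, 31.8 and 264 CPM, and no intervals were computed for these levels. In ConA+FICZ 1 of the 272 cells held 183 of the Mt1 and 63 of the 89 Mt2 UMIs, and without it Mt1 stood at 301 and Mt2 at 35.6. Granulocyte progenitor-like cells, which carried Elane, Mpo and Prtn3, had Mt1 with next to no Mt2. They held 223, 292 and 84 Mt1 UMIs in ConA+Veh, ConA+TCDD and ConA+FICZ, at 364, 596 and 392 CPM, against 0, 8 and 0 Mt2 UMIs.

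Endothelial-like cells, which line the liver's blood vessels and sinusoids, were the highest class of more than 40 cells in Naïve. Mt1 stood at 1578 (1381 to 1795) in 43 cells, 1139 (1022 to 1266) in 76, 8133 (7178 to 9179) in 8 and 2044 (1845 to 2259) in 43, and Mt2 at 485, 442, 2794 and 998 CPM. ConA+TCDD was highest for both genes, yet from 8 cells, of which 1 held 164 of the 262 Mt1 UMIs. The log2 ratio of ConA+TCDD over ConA+Veh was 2.84 (2.60 to 3.07) for Mt1 and 2.66 (2.26 to 3.05) for Mt2, both called (3.17% of all genes were). Without the single highest cell of each library the ratios were 1.88 and 1.83, and without the cells that held 2 or more markers of another class they were 0.83 and 0.88, which ends both calls. ConA+FICZ over ConA+Veh was 0.84 (0.63 to 1.06) for Mt1 and 1.17 (0.85 to 1.5) for Mt2, of which only Mt2 was called (2.83% of all genes), and without the highest cell of each library the ratios were 0.26 and 0.70, which ends the Mt2 call. ConA+Veh over Naïve was -0.47 (-0.71 to -0.22) and -0.13 (-0.56 to 0.30), and neither was called higher (8.19% of all genes). One Naïve cell held 41 of the 71 Mt2 UMIs there. Without the highest cell of each library Mt2 stood at 227 CPM in Naïve and 410 in ConA+Veh, so no direction is given for Mt2 in this pair. Only 1 endothelial marker, Cdh5, was among the 10 leading genes of this class. Between 0 and 3 of these cells a library held 2 or more of the lymphatic markers Prox1, Pdpn, Mmrn1 and Flt4.

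Rare stromal and epithelial cells reached high levels. In stellate- or fibroblast-like cells, which carried Dcn, Col3a1 and Acta2, Mt1 stood at 7838 in the 12 cells of ConA+Veh, 21625 in the 12 of ConA+TCDD and 2088 in the 2 of ConA+FICZ. These 12 cells of ConA+TCDD, 0.638% of the library, held 31.1% of all its Mt1 UMIs. Bile duct-like cells stood at 793, 2607, 1531 and 14911 CPM of Mt1, from 2, 11, 3 and 2 cells. Hepatocyte-gene droplets stood at 6312, 9606, 40597 and 20187, from 28, 8, 2 and 196 droplets. Erythroid-like cells stood at 0, 358, 550 and 2142, from 5, 47, 71 and 11 cells. With so few cells these levels describe the cells counted.

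Within the T-like cells, the high levels of the ligand libraries sat in cells that were not cycling. In T-like cells with fewer than 2 markers of the cell cycle, Mt1 stood at 127 (111 to 146), 93.0 (79.8 to 108), 921 (884 to 958) and 402 (377 to 427) CPM. In cycling T-like cells it stood at 6.98 (0.85 to 25.2), 82.0 (75.4 to 89.1), 111 (101 to 122) and 102 (92.9 to 112). The log2 ratio of ConA+TCDD over ConA+Veh for Mt1 was 3.31 (3.09 to 3.54) in the first and 0.43 (0.25 to 0.61) in the second, and for Mt2 4.51 (3.88 to 5.21) and 0.53 (0.12 to 0.95). For ConA+FICZ the Mt1 ratios were 2.11 (1.88 to 2.35) and 0.32 (0.13 to 0.50), and the Mt2 ratios 3.27 (2.63 to 3.98) and -0.45 (-0.96 to 0.04). At the Mt1 to Alb ratio of the hepatocyte-gene droplets, free RNA would hold 41.0% of the Mt1 UMIs of cycling and 0.276% of those of non-cycling T-like cells in ConA+TCDD, and 2.03% and 2.28% in ConA+Veh. With that taken off, cycling cells stood at 65.4 CPM in ConA+TCDD against 80.4 in ConA+Veh, so no direction is given for the cycling cells. The ConA+TCDD ratio rested on 2 droplets with 49 Mt1 and 15 Alb UMIs. Of the 59 Alb UMIs of T-like cells there, 57 were in cycling cells, and whether these are free RNA was not tested. The share of T-like cells that cycled differed too, with 17 of 525, 475 of 815, 250 of 705 and 223 of 567 cells.

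The cells without a UMI of Cd4, Cd8a or Cd8b1, the coreceptor genes of helper and cytotoxic T cells, had the highest ratio of ConA+TCDD over ConA+Veh of the coreceptor groups. Their Mt1 level was 136 (111 to 166), 112 (96.0 to 131), 1188 (1139 to 1239) and 414 (381 to 450) CPM. In cells with Cd8a or Cd8b1 alone Mt1 stood at 142, 78.4, 146 and 137, and in those with Cd4 alone at 14.0, 97.5, 128 and 268. The ConA+TCDD over ConA+Veh log2 ratio for Mt1 was 3.40 (3.17 to 3.64) with no coreceptor UMI, 0.90 (0.71 to 1.09) with Cd8 and 0.39 (0.04 to 0.74) with Cd4. For ConA+FICZ it was 1.88 (1.63 to 2.14), 0.81 (0.62 to 1.0) and 1.46 (1.17 to 1.76). The order of the 3 groups thus was not the same in the 2 ligand libraries. In the few cells with UMIs of both Cd4 and Cd8, the Mt1 ratio over ConA+Veh was -1.41 (-3.12 to -0.05) in ConA+TCDD, from 5 against 35 UMIs. It was 1.54 (0.92 to 2.17) in ConA+FICZ, from 63 UMIs. With the free RNA share taken off (36.3% of the UMIs with Cd8 and 0.451% with no coreceptor UMI in ConA+TCDD), Mt1 in ConA+TCDD stood at 93.1 CPM with Cd8 against 77 in ConA+Veh. The ConA+TCDD share again rested on the ratio of 2 droplets. The absence of a UMI does not show that a cell lacks the gene. In T-like cells with 2 markers of the gamma delta T cell receptor, Mt1 was counted 0, 16, 60 and 29 times, at up to 270 CPM in the 23 such cells of ConA+TCDD. Of these 23 cells, 1 held 63.9% of their Mt1 and Mt2 UMIs and 17 held none, so that level describes few cells. T-like cells with a Foxp3 UMI, the regulatory T cell factor, numbered 4, 14, 16 and 23 and held 0, 14, 11 and 30 Mt1 UMIs. The ConA libraries stood there at 109, 167 and 136 CPM, with overlapping intervals. T-like cells with at least 3 of 5 regulatory T cell markers numbered 16, 144, 112 and 128. Their Mt1 stood at 68.1 (38.1 to 112), 149 (133 to 166), 254 (229 to 280) and 227 (207 to 248) CPM.

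T-like cells were also split by whether they had a UMI of Cd52, a surface glycoprotein of lymphocytes. In ConA+TCDD, 212 T-like cells had none and stood at 1615 (1536 to 1697) CPM of Mt1 against 221 (209 to 234) in the 493 with Cd52, and at 2185 against 740 for Rbm3, a cold-inducible RNA-binding protein. The same split in ConA+FICZ gave 906 (786 to 1039) in 58 cells against 189 (179 to 200) in 509 for Mt1, and 879 against 963 for Rbm3. In ConA+Veh it gave 183 (110 to 286) in 55 cells against 83.2 (77.3 to 89.5) in 760, and in Naïve 149 (85.3 to 242) against 107 (92.3 to 123), which overlap. In B-like cells the split gave 169 (122 to 228) against 36.5 (28.6 to 45.9) in ConA+TCDD. It gave 81.8 (43.5 to 140) against 14.3 (10.0 to 19.7) in Naïve and 226 (152 to 322) against 79.2 (71.1 to 88.0) in ConA+FICZ. In ConA+Veh it gave 24.9 (6.79 to 63.8) against 18.3 (14.7 to 22.6), which overlap. The B-like split was thus not particular to ConA+TCDD. In NK-like cells it gave 60.2 (19.6 to 141) against 73.6 (54.8 to 96.8) in ConA+TCDD, which overlap, and 336 (135 to 692) against 81.2 (60.4 to 107) in ConA+FICZ, from 7 and 51 UMIs. T-like cells without Cd52 were shallower, at a median of 4369 UMIs against 8254 in ConA+TCDD, and the part of depth in this split was not tested.

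**Figure D3:**
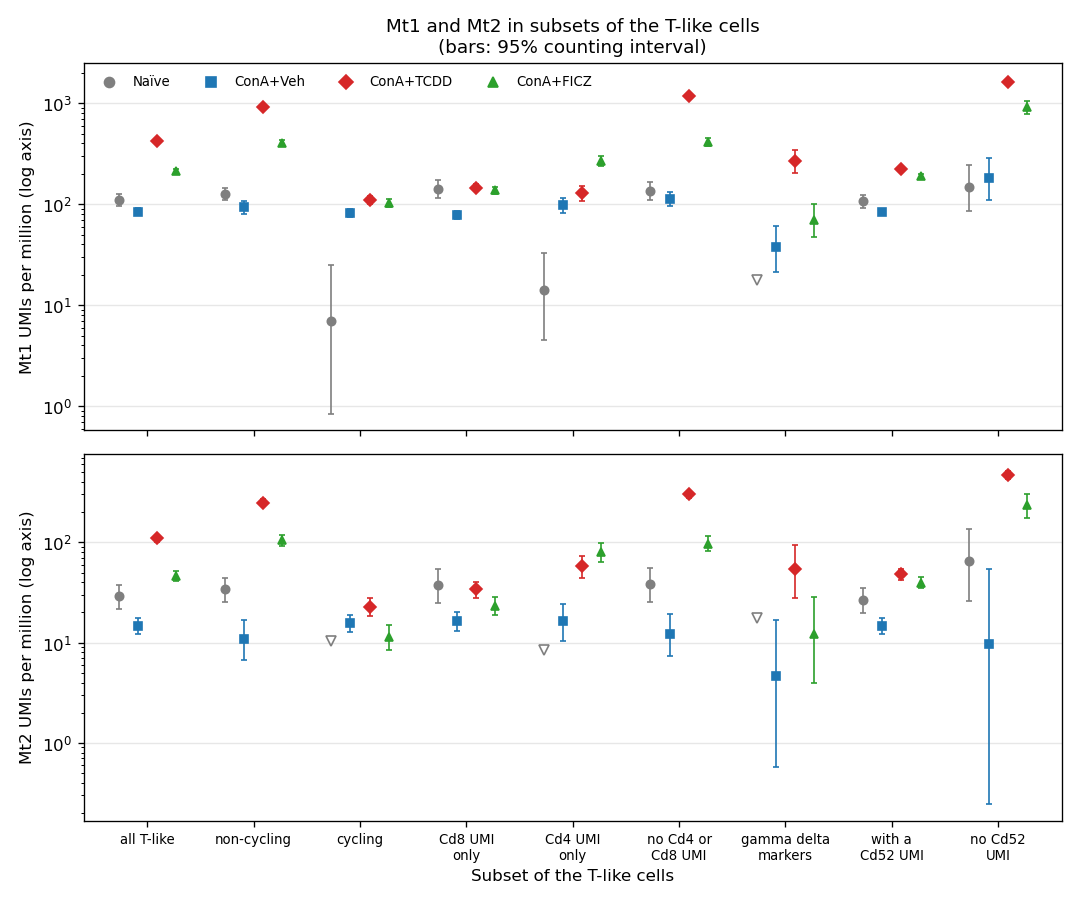
Mt1 (top) and Mt2 (bottom) in CPM on a log axis in subsets of the T-like cells, by library (subsets of at least 5 cells; bars are 95% Poisson intervals, open triangles stand at 3 counts where no UMI was found). In ConA+TCDD, Mt1 stands at 921 in non-cycling and 111 in cycling cells.

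Over single cells the T-like metallothionein counts were concentrated in a minority. With each cell thinned to 1000 UMIs, 2.65% (95% Clopper-Pearson interval 1.42 to 4.49) of T-like cells in Naïve held an Mt1 UMI, 4.93% (3.53 to 6.68) in ConA+Veh, 15.2% (12.6 to 18.1) in ConA+TCDD and 13.3% (10.6 to 16.4) in ConA+FICZ. The unthinned shares were 4.19%, 16.4%, 28.9% and 36.7%, and 17 to 35 cells a library were left out of the thinned shares as too shallow. For Mt2 the thinned shares were 0.408%, 1.14%, 7.61% and 2.91%. The 2 ligand libraries overlapped for the share with Mt1 and did not for Mt2. Cells with at least 3 Mt1 UMIs after thinning made up 0.612%, 0.506%, 6.15% and 1.82%. Beside them, B-like cells, thinned in the same way, held an Mt1 UMI in 1.6%, 2.04%, 4.53% and 8.58% of cells. The part of free RNA in these B-like shares was not tested.

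If Mt1 had been spread evenly by depth, 28.3%, 48.9%, 85.7% and 74.4% of the T-like cells would have held a UMI before thinning, above the share seen in each library. The 10% of T-like cells with most Mt1 held 100%, 93.1%, 87.0% and 82.9% of its UMIs. In ConA+TCDD the highest cell held 293 Mt1 UMIs, and 17 cells held at least 50% of the total. The Fano factor of Mt1, its variance over its mean in cells thinned to 1000 UMIs, was 14.6 in the T-like cells of ConA+TCDD, the fourth highest of 878 genes with at least 100 thinned UMIs (median 1.13). In ConA+FICZ it was 4.58, rank 14 of 696. Other classes held Mt1 in more of their cells. Of endothelial-like cells 71.8%, 60.3%, 87.5% and 60.0% held an Mt1 UMI after thinning, as did 22.5%, 39.1%, 52.9% and 49.5% of the phagocyte-like cells.

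T-like cells with at least 10 Mt1 and Mt2 UMIs per 10000 UMIs, called Mt-high here, numbered 6 of 525 in Naïve (1.14%, 0.421 to 2.47), 18 of 815 in ConA+Veh (2.21%, 1.31 to 3.47), 82 of 705 in ConA+TCDD (11.6%, 9.36 to 14.2) and 41 of 567 in ConA+FICZ (7.23%, 5.24 to 9.68). They held 92.4%, 53.1%, 87.9% and 66.6% of the Mt1 and Mt2 UMIs of the T-like cells. The cut was a round number on a continuous scale, and 4, 12, 36 and 36 cells lay below it, at 5 to under 10 UMIs per 10000. Above it the ConA+TCDD cells went further, with 3.83% of the T-like cells at 50 or more per 10000 and 1.84% at 100 or more, against 1.23% and 0.529% in ConA+FICZ. In ConA+Veh no cell reached 50 (0 of 815, interval up to 0.452%).

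**Figure D4:**
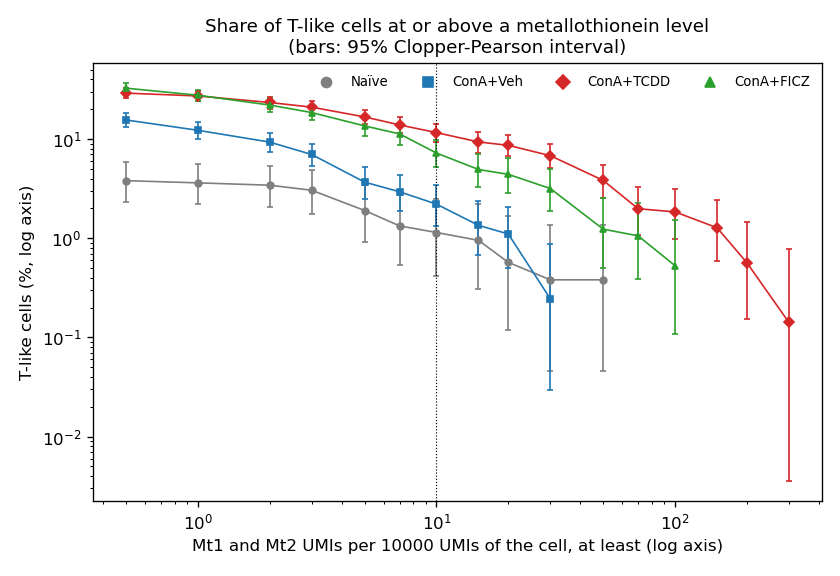
Share of T-like cells (%, log axis) at or above a given number of Mt1 and Mt2 UMIs per 10000 UMIs of the cell (log axis), by library, with 95% Clopper-Pearson intervals; the dotted line marks 10. ConA+TCDD and ConA+FICZ lie together at 1 per 10000 (27.2% and 27.7%) and part above it, to 1.84% and 0.529% at 100.

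Among T-like cells of the ConA libraries, Mt2 was found more often in cells with Mt1 than in cells without it. Of the T-like cells of ConA+TCDD thinned to 1000 UMIs, 39.4% of those with Mt1 held Mt2, against 1.90% of those without, and Pearson's r of log2(UMIs + 1) over the 683 cells was 0.70. In ConA+FICZ the shares were 15.1% and 1.05% (r = 0.45, 550 cells) and in ConA+Veh 12.8% and 0.532% (r = 0.29, 791 cells). In B-like cells of ConA+FICZ the shares were 6.06% and 0.996% (r = 0.10, 769 cells). The cells behind each r share a library, so r describes them and carries no test.

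The Mt-high T-like cells of ConA+TCDD were of like depth to those without a metallothionein UMI, with a median of 5811 against 5749 UMIs. By coreceptor, 63 of the 82 held no UMI of Cd4 or Cd8, 13 held Cd8, 6 held Cd4, and 1 held Foxp3. By the cell cycle, 13.4% were cycling against 37.3% of the cells at 0. They were not richer in markers of other classes, since 11% held at least 2 markers of another class against 27.5% of the cells at 0. They held fewer T markers, a median of 4 against 6. In ConA+FICZ 17 of the 41 Mt-high cells held no coreceptor UMI, 17 held Cd8, 6 held Cd4 and 1 held both, and 19.5% were cycling against 39.2% at 0. The 18 Mt-high cells of ConA+Veh were of another make-up, with a median of 13208 UMIs against 5750 at 0, and 66.7% of them held 2 or more markers of another class against 37.8%. The free hepatocyte RNA list stood at 30.9, 16.0, 10.6 and 78.1 CPM in Mt-high T-like cells, against 54.0, 14.2, 6.05 and 48.7 in those at 0. In the Mt-high hepatocyte-gene droplets of Naïve, ConA+Veh and ConA+FICZ it stood at 36266 to 74196. Haemoglobin came to 1293 UMIs in the Mt-high T-like cells of ConA+TCDD, of which 1210 were in 1 cell. In Mt-high phagocyte-like cells the hepatocyte list stood at 96.2, 42.1, 6.51 and 96.6 CPM. In Mt-high B-like cells it stood at 1710, 4750, 0 and 2205 CPM, from 7, 11, 13 and 33 cells. In Mt-high neutrophil-like cells it stood at 0, 0, 0 and 4803 CPM, from 1, 2, 4 and 29 cells.

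Among 8281 genes with at least 20 UMIs in Mt-high and metallothionein-free T-like cells of each of the 3 ConA libraries, 12 (0.145%) were at least 2-fold higher in the Mt-high cells of all 3, and 40 (0.483%) were lower. These were picked after their values were seen. The 12 were Perp, Bnip3, Smox, AA467197, Eif4ebp1, Cdkn1a, Tnfrsf9, Furin, Arrb1, Ly6k, Irf4 and AW112010. Tnfrsf9, which encodes the costimulatory receptor 4-1BB of activated T cells, had log2 ratios of 1.49 in ConA+Veh, 1.92 in ConA+TCDD and 1.70 in ConA+FICZ, and Irf4, a transcription factor induced by the T cell receptor, had 1.01, 1.44 and 1.01. Cdkn1a, the cell cycle inhibitor p21, had 2.13, 1.15 and 2.10. The 40 lower genes included Cd8b1 (-1.08, -3.42 and -1.38), Mki67, a marker of proliferation (-1.62, -1.22 and -2.28), and Tcf7 and Klf2, factors of resting T cells. Il2ra, the interleukin 2 receptor alpha chain, was at 0.94, 1.39 and 1.83. Cd3e, a T cell receptor subunit, was at -0.31, -1.22 and -0.61, and Trbc1, a constant region of the receptor's beta chain, at -0.49, 0.00 and -0.52. Rbm3 was at 0.01, 1.53 and 0.28.

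The share of Mt2 in the metallothionein UMIs was several times lower in phagocyte-like cells than in T-like and endothelial-like cells. The 2 transcripts are of like length and the assay counts molecules, so the shares need no correction for length. In T-like cells Mt2 made up 20.9% (16.2 to 26.3), 14.8% (12.5 to 17.3), 20.6% (19.2 to 21.9) and 17.8% (16.0 to 19.6). In phagocyte-like cells it made up 4.08% (1.97 to 7.38), 3.54% (2.68 to 4.57), 6.02% (4.54 to 7.80) and 4.46% (3.48 to 5.62). In endothelial-like cells it made up 23.5% (18.8 to 28.7), 28.0% (24.0 to 32.2), 25.6% (21.1 to 30.5) and 32.8% (29.0 to 36.8). The highest endothelial-like cell held 26.8%, 7.72%, 61.9% and 38.0% of these UMIs. Among the 11 Naïve endothelial-like cells with at least 10 metallothionein UMIs, the median Mt2 share was 13.3%. Phagocyte-like cells thus lay below T-like and endothelial-like cells in each library, with no overlap of intervals. Granulocyte progenitor-like cells were low, at 0 of 223, 8 of 300 (2.67%, 1.16 to 5.19) and 0 of 84 UMIs in the ConA libraries, where the interval for 0 of 223 reaches 1.64%. Neutrophil-like cells of ConA+TCDD held 0 of 50, with an interval up to 7.11%, and those of ConA+FICZ 18.1% (14.8 to 21.8) of 492. One ConA+FICZ cell held 50% of those 492 UMIs and 63 of the 89 Mt2 UMIs, so that share describes few cells. Hepatocyte-gene droplets stood at 6.83% (4.33 to 10.2), 16.8% (12.2 to 22.3), 14.0% (6.26 to 25.8) and 8.68% (8.02 to 9.37), and stellate- or fibroblast-like cells at 14.9%, 16.3% and 14.9% in the ConA libraries. Among single T-like cells of ConA+TCDD with at least 10 metallothionein UMIs (67 cells), the median Mt2 share was 20%, with quartiles of 11% and 27.3%.

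**Figure D5:**
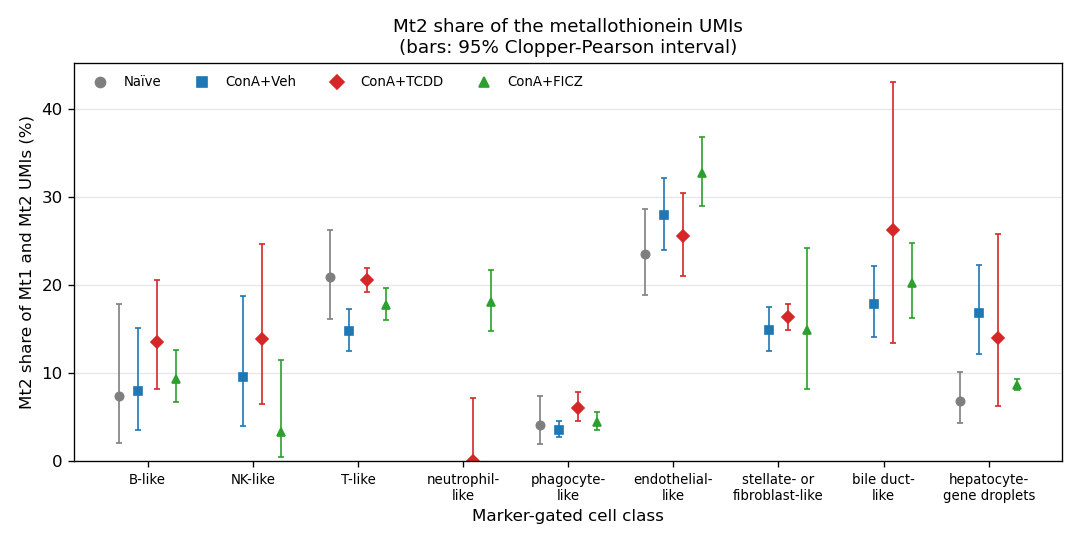
Mt2 as a percentage of the Mt1 and Mt2 UMIs by class and library, with 95% Clopper-Pearson intervals (classes with at least 20 such UMIs). Phagocyte-like cells lie between 3.54% and 6.02%, endothelial-like cells between 23.5% and 32.8%.

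The other metallothioneins were rare. Mt3, known for its place in the brain, was counted 3, 89, 40 and 23 times over all cells and Mt4, of squamous epithelia, 3 times, all in ConA+Veh. In T-like cells Mt3 had 2, 77, 26 and 18 UMIs, of which 77 came from 15 cells with up to 23 in 1 cell. Its log2 ratio over ConA+Veh was -1.15 (-1.86 to -0.50) in ConA+TCDD and -1.74 (-2.56 to -0.98) in ConA+FICZ, opposite in sign to Mt1 and Mt2. Of the metallothioneins, 3 of 4 thus had enough UMIs in T-like cells, with 2 called higher and 1 called lower in each ligand comparison. Beside them, 0.97% of all genes were called higher and 2.07% lower in ConA+TCDD, and 1.1% and 2.46% in ConA+FICZ. Nothing is read from the 2 higher calls, since the pair was picked on such values. The highest T-like cell held 23 Mt3 UMIs in ConA+Veh, 5 in ConA+TCDD and 3 in ConA+FICZ. The Mt3 calls were not recomputed without these cells, so nothing is read from them either.

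The genes that sense and move metals were put to the same call in T-like cells. Of all genes there, 0.97% were called higher and 2.07% lower in ConA+TCDD over ConA+Veh. In ConA+FICZ over ConA+Veh it was 1.1% and 2.46%. At such shares a short list is likely to hold few or no called genes, so nothing is read from a low count. Mtf1, the zinc sensor that induces both, stood at 17.9 (12.4 to 25), 14.0 (11.6 to 16.7), 19.8 (16.6 to 23.5) and 20.6 (17.3 to 24.2) CPM, at a log2 ratio over ConA+Veh of 0.50 in ConA+TCDD and 0.56 in ConA+FICZ. Slc30a1, the zinc exporter that MTF-1 is also known to induce, was counted 4, 33, 36 and 25 times (log2 ratios of 0.54 and -0.04). None of 6 zinc exporters, 11 zinc importers or 7 copper-handling genes with at least 20 UMIs was called in ConA+TCDD over ConA+Veh, and in ConA+FICZ over ConA+Veh only the importer Slc39a8 was, as lower (-1.28, from 9 against 28 UMIs). The median log2 ratio of these 3 lists was -0.10, -0.03 and -0.10 in ConA+TCDD and -0.26, 0.13 and 0.08 in ConA+FICZ, beside -0.05 and -0.02 over all genes. The lists of known inducers' targets were counted in the same way. Of 10 glucocorticoid targets none was called in either comparison, from -0.19 (Dusp1) to 0.74 (Klf9) in ConA+TCDD, with a median of 0.18 there and 0.12 in ConA+FICZ. Of 9 STAT3 and acute phase targets, Lcn2 (-2.36, from 6 against 41 UMIs) and Saa3 (-4.05, -9.41 to -1.42, from 1 against 22 UMIs) were lower in ConA+TCDD and Lcn2 was higher (2.23) in ConA+FICZ. Of the targets of NRF2, the oxidative stress factor, Hmox1, which encodes haem oxygenase 1, was lower in ConA+TCDD (-1.23) and Gclc, a subunit of the enzyme that starts glutathione synthesis, stood at 0.66. None was called in ConA+FICZ.

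Counted once each, 50 of the 65 list genes other than metallothioneins had 20 UMIs in ConA+TCDD over ConA+Veh in T-like cells, with 0 called higher and 3 called lower, beside 0.97% of all genes called higher and 2.07% lower. In ConA+FICZ over ConA+Veh it was 1 higher and 1 lower of 51 (1.1% of all genes were higher and 2.46% lower). In ConA+Veh over Naïve it was 4 higher and 8 lower of 50 genes, beside 7.83% of all genes called higher and 14.3% lower. Both counts lie near those shares, so nothing is read from them. Those higher included Gclm (2.60) and Hmox1 (2.14). Those lower included Tsc22d3 (-2.79), a glucocorticoid target, and Junb (-2.62). Outside the T-like cells, the list genes called higher in ConA+TCDD over ConA+Veh were 1 of 46 in B-like, 1 of 46 in phagocyte-like and 0 of 23 in endothelial-like cells, beside 1.38%, 2.06% and 3.17% of all genes. Those called lower were 4, 5 and 3, beside 2.59%, 3.03% and 1.94%. In ConA+FICZ over ConA+Veh 1 of 47, 5 of 48 and 5 of 31 were higher, beside 1.83%, 3.23% and 2.83%, and 2, 2 and 0 were lower, beside 1.95%, 1.7% and 2.28%.

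The AhR target Cyp1a1 was seen in endothelial-like cells and next to absent from T-like cells. This enzyme, most often read as a sign of AhR activity, had 0, 1, 1 and 0 UMIs in T-like cells. In endothelial-like cells it had 24, 1, 14 and 94 UMIs, at 164 (105 to 244), 3.30 (0.08 to 18.4), 435 (238 to 729) and 499 (403 to 611) CPM. Its level in the ligand libraries was thus above ConA+Veh, as was that of Naïve, and ConA+TCDD had only 8 such cells. A link between Cyp1a1 and Mt1 was not tested. Tiparp, another AhR target, stood at 15.8, 17.4, 16.2 and 13.5 CPM in T-like cells, within overlapping intervals.

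Over the 21 points given by 8 classes and 4 libraries with at least 50 cells, log2(CPM + 10) of Mt1 and Mt2 followed each other with Pearson's r of 0.91. Among the 5 genes whose profiles came nearest to the mean of the pair, of 7733 genes with at least 500 UMIs, were Tmem205 (r = 0.85), H1f0, a linker histone (0.84), Cyb5a, cytochrome b5 (0.83), and Mcfd2 (0.83). Ranked by Spearman's rho, 1 of these 5 stayed among the top 5, and with a pseudocount of 50, 4 did. The named genes were each highest in the hepatocyte-gene droplets of ConA+FICZ, the only point of that class (723, 136, 930 and 224 CPM). In T-like cells of ConA+Veh and ConA+TCDD, Tmem205 stood at 1.69 and 0.75 CPM and H1f0 at 8.57 and 7.80. Cyb5a stood there at 129 and 135 and Mcfd2 at 8.79 and 12.9. The points share libraries and free RNA, so the likeness values are a description.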

How the data were processed

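Single-cell RNA sequencing of liver mononuclear cells had been done on 4 libraries with the 10X 5′ kit. The deposited values are counts of UMIs per gene and cell, made by the authors with bcl2fastq and Cell Ranger (version 3.0.2 per the file headers) on mm10 and not normalized further. All 9300 deposited cells were used, of at least 500 UMIs each. Classes were gated by at least 2 detected markers with a lead of 1, and ties were left unassigned. No doublet caller was run. UMIs were summed per class and library and divided by the summed UMIs of the class. Poisson (levels), Clopper-Pearson (shares) and exact binomial (log2 ratios) 95% intervals treat UMIs as independent and cover counting error only, and cells are not replicates. With 1 library per condition no test was run. A call is at least 2-fold with an interval that leaves out 1, among genes with 20 UMIs in the pair. Where 1 side had no UMI, 3 counts were used as the floor. Shares of cells with a UMI were compared after each cell was thinned to 1000 UMIs. The members and the gene and marker lists were chosen with earlier results of these data known. Genes named beside the pair were, of each list, those with the largest and smallest log2 ratio among genes of 50 UMIs, those called, and the 5 nearest in profile, and the genes of the Mt-high cells and Cd52 and Rbm3 were picked after their values were seen. Alternatives changed the cells kept, the gate, the scale, the thinning, the likeness measure and the call, and 2 were added after seeing the data: leaving out the single highest cell, and taking off the share of free hepatocyte RNA. Scripts were checked on simulated counts. Python 3.11.15, numpy 2.4.6, scipy 1.17.1 and matplotlib 3.10.9 were used. Sequence came from RefSeq tables of GRCm38.p6. One gene near the pair in profile is not reported here.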

Additional observations from a re-analysis of the deposited data

Results flagged for a closer look

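The difference between the ConA+Veh and Naïve libraries for Mt1 did not have the same sign in all classes. The log2 ratio was -0.37 in T-like cells, 0.52 in phagocyte-like cells and -0.47 in endothelial-like cells, and the 3 counting intervals leave out 0. With 1 library per condition the difference between the classes was not tested. The T-like value rests in part on 1 Naïve cell, as given above.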

How the results depend on the processing

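No paired analysis was possible because each condition had 1 library, and for the same reason no library could be left out. Of 251 alternative values of 23 ratios under 11 settings, 182 stayed within the main value's counting interval and 69 moved out of it. Of the called ratios 0 changed sign. Uncalled ratios over Naïve did, among them those of T-like cells, of endothelial-like Mt2 and of B-like Mt1. Without the highest cell, B-like Mt1 stood at 16.4 CPM in Naïve and 15.6 in ConA+Veh. None moved when cells under 200 genes or over 10% mitochondrial UMIs were left out, or with totals without ribosomal and mitochondrial genes. Values that moved for Mt1, and for Mt2 in T-like cells, follow as log2 ratios. Moved values of Mt2 in the other classes are not listed here. Where a cell rather than a UMI counted equally (mean over cells), T-like Mt1 was 0.81 in ConA+Veh over Naïve, 3.13 in ConA+TCDD and 2.02 in ConA+FICZ over ConA+Veh, Mt2 was 0.37, 4.02 and 2.58, phagocyte-like Mt1 was 1.12 over Naïve and 1.66 in ConA+TCDD, and endothelial-like Mt1 was 2.50 in ConA+TCDD. As mean UMIs per cell with no correction for depth, T-like Mt1 was 1.21, 2.12 and 1.5, Mt2 over Naïve 0.61, B-like Mt1 over Naïve 1.23, and phagocyte-like Mt1 1.14, 1.33 and 0.18. In cells with no Alb UMI, T-like Mt1 was 0.0015, 2.45 and 1.51, and in ConA+FICZ B-like Mt1 was 1.65 and endothelial-like Mt1 0.31. Without cells with 2 or more markers of another class, T-like Mt1 was -1.29, 3.46 and 2.37, Mt2 -2.14, 4.35 and 3.05, B-like Mt1 1.91 in ConA+TCDD, phagocyte-like Mt1 0.22 over Naïve, and endothelial-like Mt1 0.83 in ConA+TCDD. Without the 1% of cells with most of both, T-like Mt1 was 2.15, 2.54 and 1.68, B-like Mt1 over Naïve 0.70, and endothelial-like Mt1 1.88 in ConA+TCDD and 0.26 in ConA+FICZ. Without cycling cells, T-like Mt1 was 3.31 in ConA+TCDD and 2.11 in ConA+FICZ, Mt2 -1.64, 4.51 and 3.27, B-like Mt1 2.09 in ConA+TCDD and 2.56 in ConA+FICZ, and phagocyte-like Mt1 1.63 in ConA+TCDD. Without the single highest cell, chosen after seeing the data, T-like ratios over Naïve were 0.16 for Mt1 and -0.37 for Mt2, phagocyte-like Mt1 was 0.85 and endothelial-like Mt1 1.88 in ConA+TCDD, and endothelial-like Mt1 0.26 in ConA+FICZ. With the free hepatocyte share taken off, also chosen after seeing the data, Mt1 was 1.19 in T-like and 1.36 in B-like cells of ConA+FICZ. In B-like cells of ConA+TCDD it was 2.12, at a ratio taken from 2 droplets. A gate of 3 markers with a lead of 2 gave 0.87 for phagocyte-like Mt1 in ConA+TCDD. The cause of these moves was not tested.

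The share of T-like cells with an Mt1 UMI in ConA+Veh, ConA+TCDD and ConA+FICZ was 2.70%, 9.93% and 8.82% when thinned to 500 UMIs and 16.4%, 28.9% and 36.7% unthinned, and 20.8% and 17.7% in the last 2 at 2000 UMIs. By Spearman's rho the median likeness of the 5 nearest genes was 0.66, against 0.84. At 1.5-fold, list genes called in T-like cells were 9 higher and 11 lower in ConA+Veh over Naïve, beside 15.4% and 24.1% of all genes, 2 higher and 3 lower in ConA+TCDD (2.42% and 5.17%), and 4 higher and 2 lower in ConA+FICZ (2.83% and 6.89%). Depth limits Mt2 most, with 4 to 39 UMIs in B-like and 1 to 9 in NK-like cells a library.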
